A study of Homo sapiens with 6 samples.

Results

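The genes described here are the 46 genes coding for receptor tyrosine kinases (RTKs), taken from a count table of 37887 rows by their gene symbols as members of this receptor family. RNA-seq was performed on BT-549 cells, an established triple-negative breast cancer (TNBC) line, to ask how gene expression differs when PBRM1, a subunit of the PBAF chromatin remodeling complex, is silenced. All cells carried a tet-PBRM1 shRNA vector according to the series design. The 3 libraries of the control_shRNA group came from cells given 0.1% DMSO as the vehicle, and the 3 libraries of the shPBRM1 group came from cells given 500 ng/ml doxycycline (DOX), which turns the shRNA on. The titles differ in calling the first group control shRNA rather than vehicle, although both kinds of label sort the 6 libraries alike. In its chromatin assays the study compared BT-549 cells that carried a control shRNA with cells that carried a PBRM1 shRNA. If the first group here carried a control shRNA too, a difference between the transduced cells cannot be told apart from the silencing. An effect of DOX cannot be told apart from an effect of the silencing either. The cells were grown in medium with serum and insulin, so that ligands from outside the cells were present in both groups.

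RTKs span the cell membrane with a part that binds a growth factor outside the cell and a kinase inside it. Ligand binding brings receptors together, they phosphorylate each other on tyrosines, and adaptor proteins that dock there start RAS-ERK, PI3K-AKT and PLC-gamma signaling. In TNBC, which lacks the hormone receptors and ERBB2 amplification, EGFR, MET, AXL, FGFR and EPHA2 have been studied as drivers of growth, invasion and drug resistance.

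Total counts were between 36429395 and 65096297 per library. PBRM1 itself fell from 158 ± 2.30 to 41.9 ± 1.22 CPM (counts scaled to library size, here normalized by the TMM method; mean ± SD, n = 3 libraries per group in this and all following values), a log2 fold change of -1.91 (SE 0.027; adjusted p = 9.98e-23 in edgeR's quasi-likelihood test). VIM and CD44, which mark mesenchymal breast cancer cells, were present at 602 CPM or more in every library, whereas counts of the estrogen receptor gene ESR1 were at most 2 and those of PGR at most 12. VIM (log2 fold change 0.31) and CD44 (0.47) rose. Of the further mesenchymal genes listed, FN1 fell from 554 ± 8.97 to 221 ± 11.5 CPM (-1.33) and ZEB1 from 197 ± 5.98 to 135 ± 4.64 CPM (-0.55). All of these passed at an adjusted p under 0.05 in the same test. PTPRC, a leukocyte gene, fell from 26, 40 and 44 counts to 12, 4 and 6, and CD14, a monocyte gene, rose from 9, 23 and 14 counts to 36, 29 and 44. CD3E, a T cell gene, had no count in any library. In bulk RNA, fewer cells with a transcript and less of it per cell cannot be told apart, and what part these cell type genes have in the results was not tested. Small counts were more often even than odd, with 1654 rows at 2 counts and 947 rows at 1 count in an average library, so that the number of independent fragments behind a small count may be lower than the count. The labels describe triplicate cultures without saying how far the 3 were kept apart, and p-values measure the spread between these libraries only.

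Of the 46 RTK genes, 37 had a mean of 10 or more counts over the 6 libraries, and all 37 entered the test. The other 9 were close to silent. KIT, the stem cell factor receptor, had 0 counts in all libraries, which allows at most 3 counts or 0.0471 to 0.0804 CPM depending on the library. TIE1 had at most 2 counts, FLT1 and EPHB6 at most 4, EPHB1 at most 6, ALK at most 7, EPHB3 at most 10 and FLT4 at most 16. NTRK2, the BDNF receptor, had 6, 26 and 12 counts in the control libraries and 0, 2 and 8 in the shPBRM1 libraries, too few to pass the filter on low counts. Without that filter NTRK2 had a log2 fold change of -2.33 (adjusted p = 0.00144 in edgeR).

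The receptors differed widely in level. Compared per kilobase of exon, since longer transcripts give more reads, EPHA2 was the most abundant RTK in control cells at 81.9 ± 1.85 CPM per kilobase. AXL followed at 72.1, the collagen receptor DDR2 at 62.9 and EGFR at 49.3 CPM per kilobase, and none of these 4 overlapped its neighbor in the order. EPHA4 (26.7) and PTK7 (26.1) came next and did not differ beyond their spread, and EPHB4 (15.8) and MET (12.1) followed. FGFR1 (10.2) and RYK (9.96) overlapped, as did ERBB2 (4.97) and FGFR2 (4.68), while IGF1R (6.69), INSR and EPHA5 (5.47) lay between these pairs. The rest ranged downward from ROR1 at 2.45 through DDR1 at 2.14, TYRO3 at 1.34 and NTRK3 at 0.779 to ERBB4 at 0.0237 CPM per kilobase. Exon length here is the union over all annotated isoforms, which lowers the value of a gene if a short isoform is the one expressed. It came to 26750 bases for NTRK3, 4159 for EPHA2, 5154 for AXL, 10730 for DDR2 and 12521 for EGFR. The order depends on it, since in CPM not divided by length the first 4 in control cells were DDR2 (675), EGFR (617), AXL (372) and EPHA2 (341). With PBRM1 silenced the first 4 places were unchanged in order, MET moved from place 8 to place 6, EPHA4 from place 5 to place 8, RET from place 30 to place 36 and KDR from place 36 to place 28.

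**Figure D1:**
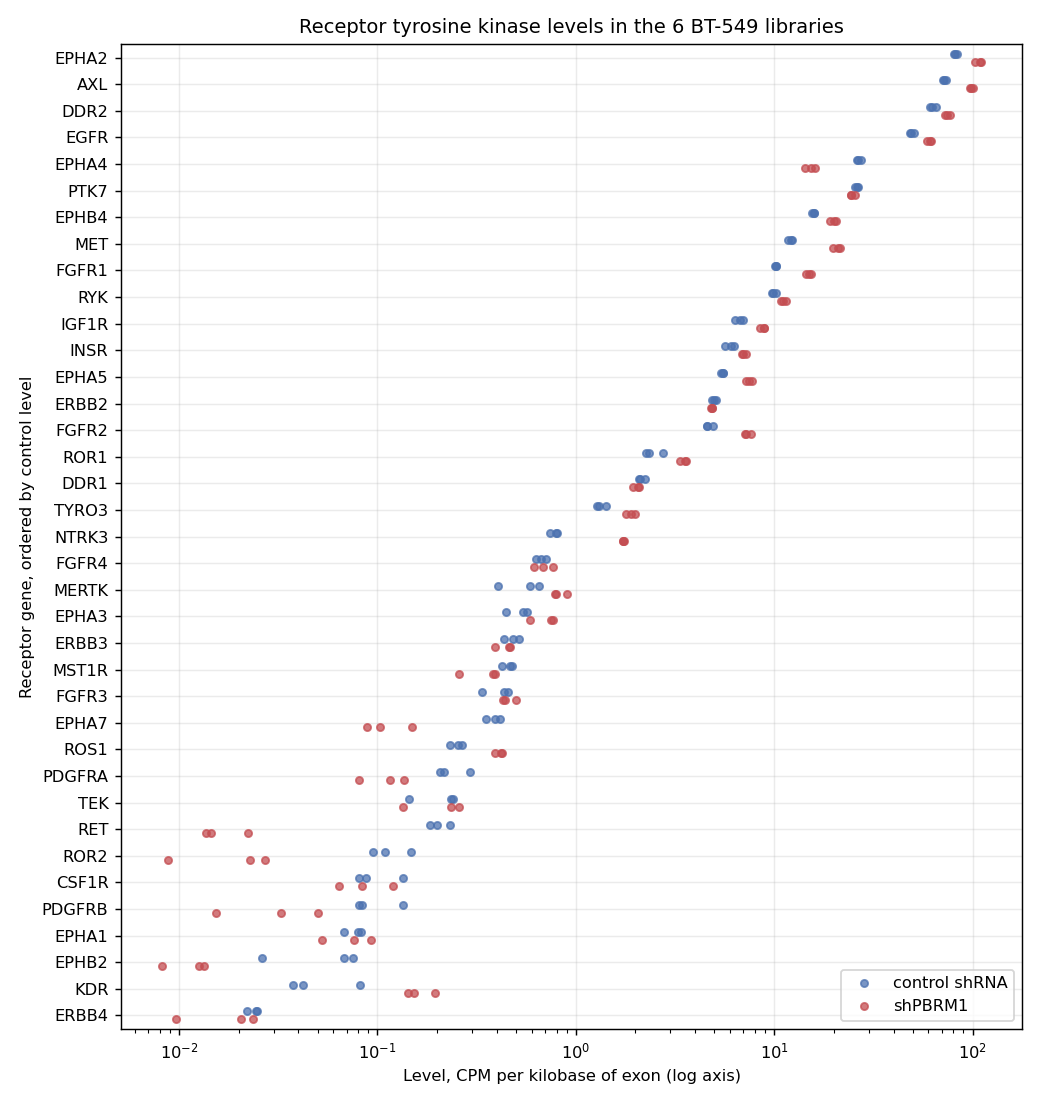
Level of each of the 37 RTK genes in CPM per kilobase of exon (log axis), 1 point per library, ordered by the control mean, with control shRNA and shPBRM1 libraries in different colors. EPHA2, AXL, DDR2 and EGFR head the order in both groups, and RET and KDR change place near the bottom.

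Most of the abundant RTK genes were higher with PBRM1 silenced, while the scarce ones moved in both directions. Of the 37 tested, 19 rose and 8 fell at an adjusted p under 0.05, where 31.5% of all 15450 genes tested rose and 33.2% fell. In total 27 passed, or 73.0%, against 64.7% of all genes. The median log2 fold change was 0.16 for the RTK genes and -0.0080 for all genes. The groups did not overlap for 29 of the 37, and for 68.3% of all genes. With a fold change over 2 added, as in the call used by the study, 2 rose (KDR and NTRK3, against 2.87% of all genes) and 6 fell (PDGFRA, PDGFRB, ROR2, EPHA7, EPHB2 and RET, against 9.68%), together 21.6% against 12.6% of all genes. Among the 19 RTK genes with a mean of 500 or more counts, 15 rose and EPHA4 fell (PTK7 fell too in the fit with a replicate block, adjusted p = 0.0425), and their median log2 fold change was 0.39. Of all 8963 genes at that level 43.7% rose and 33.4% fell, 77.1% in all, with a median of 0.054. Only NTRK3 of these 19 differed over 2-fold, as did 6.08% of genes at that level, 1.97% rising and 4.11% falling. Among the 18 with a mean of 10 to 500 counts, 4 rose, 7 fell and 7 did not pass, with a median of -0.16, where 14.9% of 6311 genes at that level rose and 32.8% fell, 47.8% in all, with a median of -0.15. Over 2-fold, 1 of these 18 rose and 6 fell, and of all genes at that level 4.1% rose and 16.8% fell, or 20.9%. The split at 500 counts was chosen after the values were seen. ROR2, EPHB2 and RET averaged 10 or more counts in the control group only and so passed the filter through that group. Nothing is read from the size of their changes. All are among the 6 that fell over 2-fold, so the shares over 2-fold are not read as an excess over all genes.

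**Figure D2:**
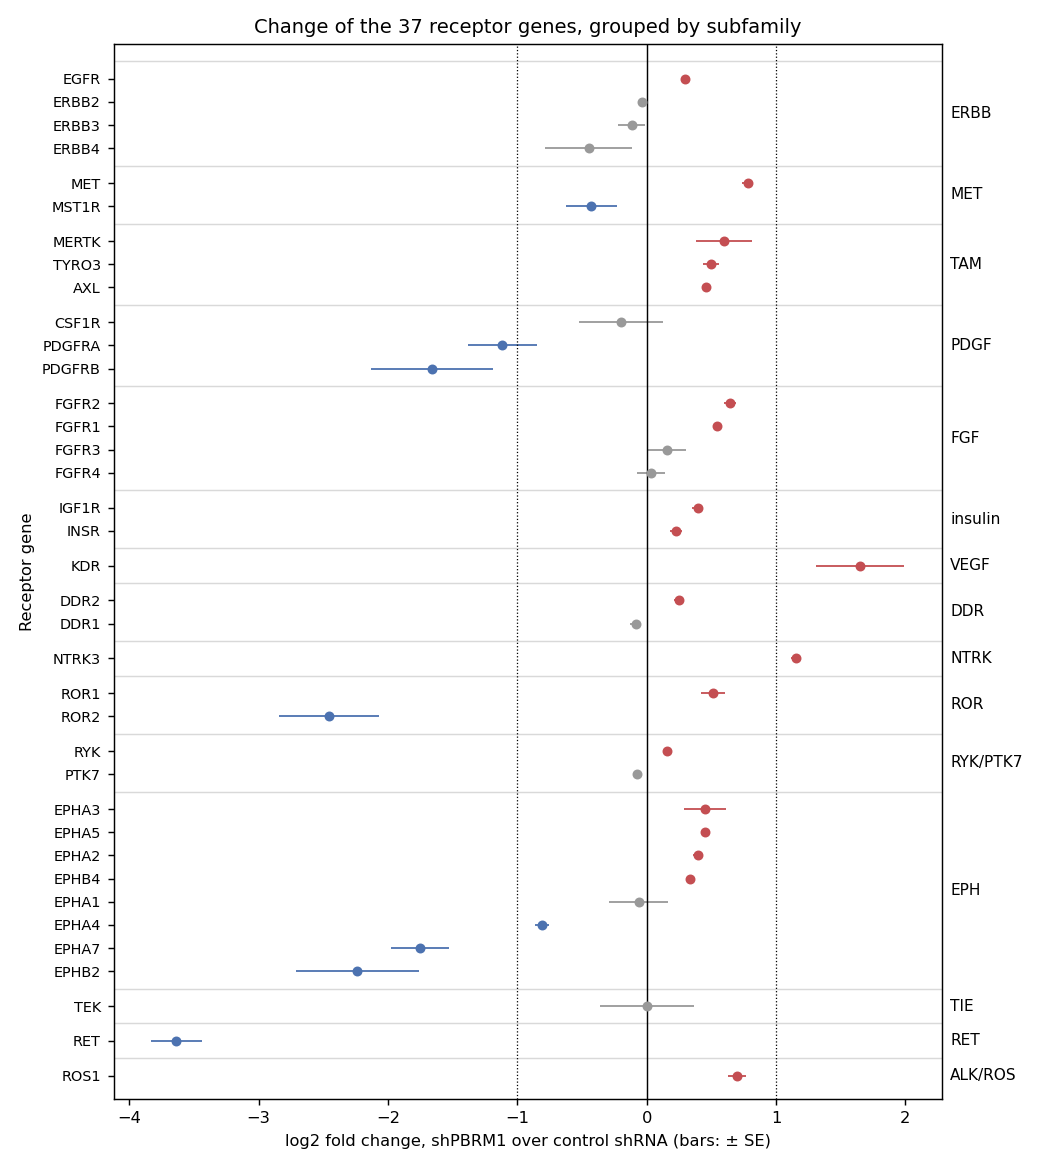
Log2 fold change (shPBRM1 over control shRNA, bars ± SE) of the 37 tested RTK genes, grouped by subfamily, with dotted lines at 2-fold and gray points for genes that did not pass the test. All 3 TAM receptors and both insulin receptors lie to the right of 0. RET at -3.63, which passed the filter on low counts through the control group only, lies farthest to the left.

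Summed over its members, the receptor level of 5 of the 6 subfamilies compared was higher in shPBRM1 cells and that of the PDGF receptor family was lower. The TAM receptors went from 74.0 ± 1.26 to 102 ± 1.58 CPM per kilobase (log2 ratio 0.46), and the FGF receptors from 16.0 ± 0.037 to 23.4 ± 0.533 (0.55). The insulin receptors went from 12.7 ± 0.466 to 15.8 ± 0.341 (0.32), the ERBB receptors from 54.8 ± 1.21 to 66.0 ± 1.51 (0.27) and the EPH receptors from 131 ± 1.35 to 151 ± 5.16 (0.21, or 0.13 when CPM were summed without division by length). The PDGF receptor family, which also holds CSF1R and KIT, was far less abundant and went from 0.440 ± 0.052 to 0.233 ± 0.066 (-0.91). In none of the 6 did the groups overlap, and each reached the exact two-sided permutation p of 0.1, the smallest that 3 against 3 libraries can give.

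**Figure D3:**
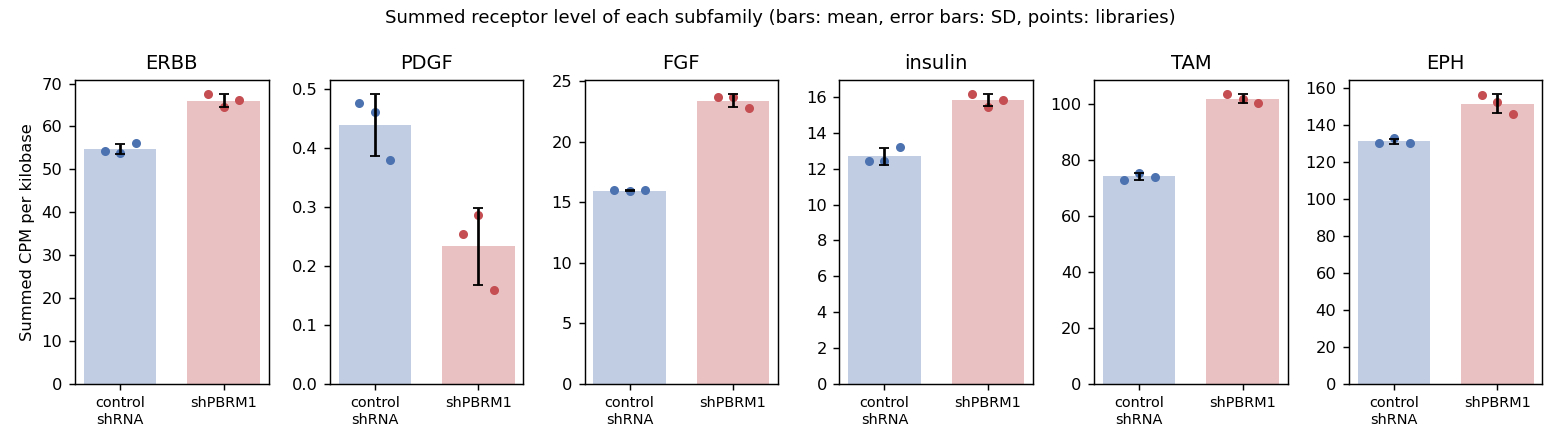
Summed CPM per kilobase of exon of the ERBB, PDGF, FGF, insulin, TAM and EPH receptors in each library (points), with the group mean (bars, from 0) and SD. The groups are apart in all 6 panels, and shPBRM1 is lower in the PDGF panel alone.

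Within the ERBB family, EGFR rose while the other 3 receptors did not pass the test. EGFR, which binds EGF, TGF-alpha and amphiregulin, measured 613, 603 and 635 CPM in the control libraries and 778, 741 and 761 in the shPBRM1 libraries. All 3 shPBRM1 values lay above all 3 control values, and the log2 fold change was 0.30 (SE 0.030; adjusted p = 3.23e-07). ERBB2, the HER2 receptor that has no ligand of its own, measured 51.1, 52.4 and 50.3 CPM in control and 49.6 to 50.5 CPM in shPBRM1 libraries (log2 fold change -0.04, 95% interval -0.09 to 0.02; adjusted p = 0.469). ERBB3 (-0.12, adjusted p = 0.415) and ERBB4 (-0.45, adjusted p = 0.395), which bind neuregulins, did not pass either, the latter on 8 to 16 counts per library. EGFR thereby made up 90.0% of the ERBB level in control cells and 92.0% in shPBRM1 cells, and ERBB2 9.08% and 7.34%. PGAP3 and MIEN1 overlap ERBB2 on the opposite strand, and the strand setting of the counting is not given in the sources used here.

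The ERBB ligands moved in both directions. HBEGF, which activates EGFR and ERBB4, rose from 17.8 ± 1.37 to 37.8 ± 0.911 CPM (log2 fold change 1.08, adjusted p = 2.92e-13), and NRG2, a neuregulin, had 0, 11 and 7 counts against 26, 28 and 36 (2.09, adjusted p = 0.00119). The other 5 ERBB ligands tested fell, beside 33.2% of all genes falling. Of these, EGF, EREG and BTC passed the filter on low counts through the control group only, as NRG2 did through the shPBRM1 group. Nothing is read from the size of the changes of these genes. AREG (amphiregulin) had 146, 222 and 225 counts in control cells and 36, 16 and 42 in shPBRM1 cells (-2.91, adjusted p = 2.32e-12). EREG (epiregulin) had 26, 34 and 22 counts against 6, 2 and 4 (-3.00, adjusted p = 7.8e-06). BTC (betacellulin) had 31, 42 and 70 counts against 2, 4 and 5 (-3.88, adjusted p = 7.77e-08). These 3 ligand genes lie near each other on chromosome 4 in the GENCODE v29 annotation of GRCh38, EREG at chr4:74365143-74388751, AREG at chr4:74445134-74455009 and BTC at chr4:74744759-74794686. EPGN, another ERBB ligand gene, lies there too, at chr4:74308473-74315307. It had 4, 4 and 3 counts against 3, 2 and 9, too few to be tested. EGF also fell on small counts, 15, 10 and 34 against 8, 0 and 11 (-1.89, adjusted p = 0.00657). NRG1, the most abundant ERBB ligand here, fell from 229 ± 4.11 to 151 ± 1.57 CPM (-0.59, adjusted p = 6.23e-13).

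MET, the receptor of hepatocyte growth factor, had the largest change among the abundant receptors other than NTRK3 and EPHA4. It measured 86.1, 83.1 and 86.9 CPM in control and 152, 140 and 147 CPM in shPBRM1 libraries, with a log2 fold change of 0.78 (SE 0.039; adjusted p = 8.78e-15). Every shPBRM1 library was far above the control libraries. HGF, its ligand, had 3 to 17 counts per library and was below the level described. The related receptor MST1R (RON) had 91, 109 and 127 counts in control and 123, 78 and 86 in shPBRM1 libraries (-0.43, adjusted p = 0.0411). That call was lost with DESeq2 (adjusted p = 0.131) and when any 1 control library or shPBRM1 replicate 3 was left out (adjusted p between 0.0509 and 0.262). Its ligand gene MST1 fell from 89, 103 and 99 counts to 65, 54 and 49 (-1.02, adjusted p = 0.000198).

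All 3 TAM receptors rose, beside 31.5% of all genes rising. As a family these receptors bind GAS6 and protein S, and through them phosphatidylserine on dying cells. AXL measured 365, 379 and 372 CPM in control and 519, 509 and 503 CPM in shPBRM1 libraries (log2 fold change 0.46, SE 0.020; adjusted p = 5.28e-10). The AXL groups were far apart, and AXL made up 97.4% of the TAM level in control cells and 97.3% in shPBRM1 cells. TYRO3 rose from 14.7 ± 0.829 to 20.7 ± 1.11 CPM (0.50, adjusted p = 1.17e-06) and MERTK from 2.58 ± 0.608 to 3.89 ± 0.327 CPM (0.60, adjusted p = 0.00183). The ligand GAS6 also rose, from 33.4 ± 0.668 to 68.7 ± 1.76 CPM (1.04, adjusted p = 7.21e-16), while PROS1, the gene of protein S, fell from 12.5 ± 0.633 to 9.45 ± 0.498 CPM (-0.40, adjusted p = 0.000136).

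The PDGF receptors were scarce in these cells and fell. PDGFRA had 75, 139 and 106 counts in control and 80, 44 and 50 in shPBRM1 libraries, or 2.32 ± 0.466 and 1.08 ± 0.277 CPM (log2 fold change -1.12, SE 0.268; adjusted p = 8.2e-05). In CPM the control libraries (2.01, 2.86 and 2.10) all lay above the shPBRM1 libraries (1.33, 1.13 and 0.784), and the change was under 2-fold without control replicate 2 (-0.93) or without shPBRM1 replicate 3 (-0.91). PDGFRB had 36, 28 and 30 counts against 14, 14 and 7 (-1.66, SE 0.471; adjusted p = 0.00128), again with no overlap. CSF1R, the receptor of the macrophage growth factors CSF1 and IL34 and the neighbor of PDGFRB on chromosome 5, had 21 to 26 counts in every library (-0.20, adjusted p = 0.652). The share of CSF1R in the summed level of this family was 22.9% in control and 38.3% in shPBRM1 cells. Another annotated gene, AC058822.1, overlaps PDGFRA on the same strand.

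All 7 ligands of the PDGF receptor family passed the test, beside 64.7% of all genes. PDGFC rose from 43.6 ± 0.109 to 86.2 ± 1.13 CPM (log2 fold change 0.98, adjusted p = 1.3e-16) and PDGFB from 3.08 ± 0.208 to 5.42 ± 0.289 CPM (0.81, adjusted p = 2e-06). PDGFA fell from 65, 89 and 86 counts to 44, 36 and 49 (-1.14, adjusted p = 7.37e-05). CSF1, the most abundant ligand of the group, fell from 195, 203 and 194 CPM to 72.9, 78.6 and 73.5 CPM (-1.39, adjusted p = 2.65e-19), and IL34 fell from 19, 19 and 18 counts to 12, 6 and 6 (-1.47, adjusted p = 0.00671). KITLG fell by 0.48 and PDGFD by 0.42 on the log2 scale.

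FGFR1 and FGFR2 rose, and the 2 scarce FGF receptors did not pass the test. FGFR1 measured 142, 142 and 140 CPM in control and 208, 212 and 200 CPM in shPBRM1 libraries (log2 fold change 0.55, SE 0.025; adjusted p = 3.77e-12). The control libraries were nearly equal and all lay below the shPBRM1 libraries. FGFR2 rose from 35.4 ± 1.49 to 55.5 ± 2.30 CPM (0.65, adjusted p = 3.9e-11), and FGFR1 made up 63.9% and 63.8% of the FGF receptor level in control and shPBRM1 cells. FGFR3 (0.16, adjusted p = 0.427) and FGFR4 (0.03, adjusted p = 0.841) were at 1.98 to 3.33 CPM on average. Of the 7 FGF ligands tested, FGF5 rose (0.25), FGF18 did not pass, and 5 fell, beside 31.5% of all genes rising and 33.2% falling. FGF2, at 464 ± 11.5 CPM in control cells, fell by 0.44 on the log2 scale and FGF1 by 0.72. FGF10 had 170, 286 and 218 counts against 83, 40 and 74 (-2.03, adjusted p = 1.73e-10). The endocrine ligands FGF19 and FGF21, which use the coreceptor KLB, fell from 24.6 ± 0.387 to 3.39 ± 0.541 CPM (-2.87, adjusted p = 8.41e-18) and from 4.23 ± 0.234 to 0.733 ± 0.072 CPM (-2.52, adjusted p = 5.57e-12). KLB itself was at 1.12 ± 0.289 and 1.02 ± 0.241 CPM (adjusted p = 0.664).

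Both receptors of the insulin family rose modestly. IGF1R measured 93.9, 89.0 and 96.7 CPM in control and 124, 119 and 124 CPM in shPBRM1 libraries, with no overlap (log2 fold change 0.39, SE 0.041; adjusted p = 1.68e-09). INSR rose from 62.7 ± 3.19 to 73.5 ± 1.84 CPM (0.23, adjusted p = 3.13e-05). Their ligand IGF1 had 23, 17 and 20 counts in control libraries and 0 in every shPBRM1 library, at least 7.82-fold lower when 3 counts per shPBRM1 library are allowed (adjusted p = 1.36e-06). INS and IGF2 were under a mean of 10 counts. Genes of docking proteins that carry the signal of these receptors fell in RNA level, IRS1 from 47.5 ± 0.731 to 25.2 ± 1.30 CPM (-0.91, adjusted p = 3.44e-13) and IRS2 from 13.3 ± 0.448 to 8.46 ± 0.612 CPM (-0.66, adjusted p = 1.97e-07). These 2 were chosen for naming after their values were seen.

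Among the VEGF receptors only KDR (VEGFR2) was above 10 counts on average, and it rose. It had 20, 12 and 14 counts in control and 56, 39 and 82 in shPBRM1 libraries, or 0.353 ± 0.159 and 1.07 ± 0.187 CPM (log2 fold change 1.65, SE 0.342; adjusted p = 0.000105). All shPBRM1 values were above all control values, though the level remained low, at place 28 of 37. Of the endothelial markers, CDH5 had at most 5 counts and VWF at most 4 in any library, and PECAM1 had 0, 14 and 18 counts against 4, 1 and 4. KDR lies on chromosome 4 beside KIT, which had no counts, and PDGFRA, which fell. Another annotated gene, AC111194.2, overlaps KDR on the opposite strand. The main KDR ligand VEGFA fell from 397 ± 13.5 to 180 ± 8.60 CPM (-1.14, adjusted p = 1.34e-16), and NRP2, a coreceptor of VEGF, fell from 51.4 ± 1.59 to 13.5 ± 0.878 CPM (-1.92, adjusted p = 2.88e-18). VEGFB, VEGFC and PGF did not pass. NRP1, the related coreceptor, fell by 0.17 on the log2 scale.

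NTRK3, the neurotrophin-3 receptor, rose over 2-fold with little spread. It measured 19.8, 21.2 and 21.5 CPM in control and 46.2, 46.4 and 46.6 CPM in shPBRM1 libraries (log2 fold change 1.15, SE 0.036; adjusted p = 6.51e-15). An antisense gene, NTRK3-AS1, overlaps it. Its ligand gene NTF3 was under 10 counts on average. BDNF was at 60.3 ± 2.76 and 58.1 ± 2.69 CPM and did not pass (adjusted p = 0.316).

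RET, the receptor of the GDNF family, fell. It had 60, 67 and 64 counts in control libraries and 6 in each shPBRM1 library, or 1.42 ± 0.173 and 0.116 ± 0.033 CPM (log2 fold change -3.63, SE 0.195; adjusted p = 3.47e-09). RET passed the filter on low counts through the control group only, so nothing is read from the size of this change. GFRA1, the coreceptor of RET that binds GDNF, rose from 117 ± 2.27 to 192 ± 3.31 CPM (0.71, adjusted p = 2.4e-14), and GDNF rose from 7.16 ± 0.616 to 11.8 ± 0.799 CPM (0.72, adjusted p = 2.1e-07). PSPN fell by 0.39 on the log2 scale, and NRTN and ARTN did not pass.

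**Figure D4:**
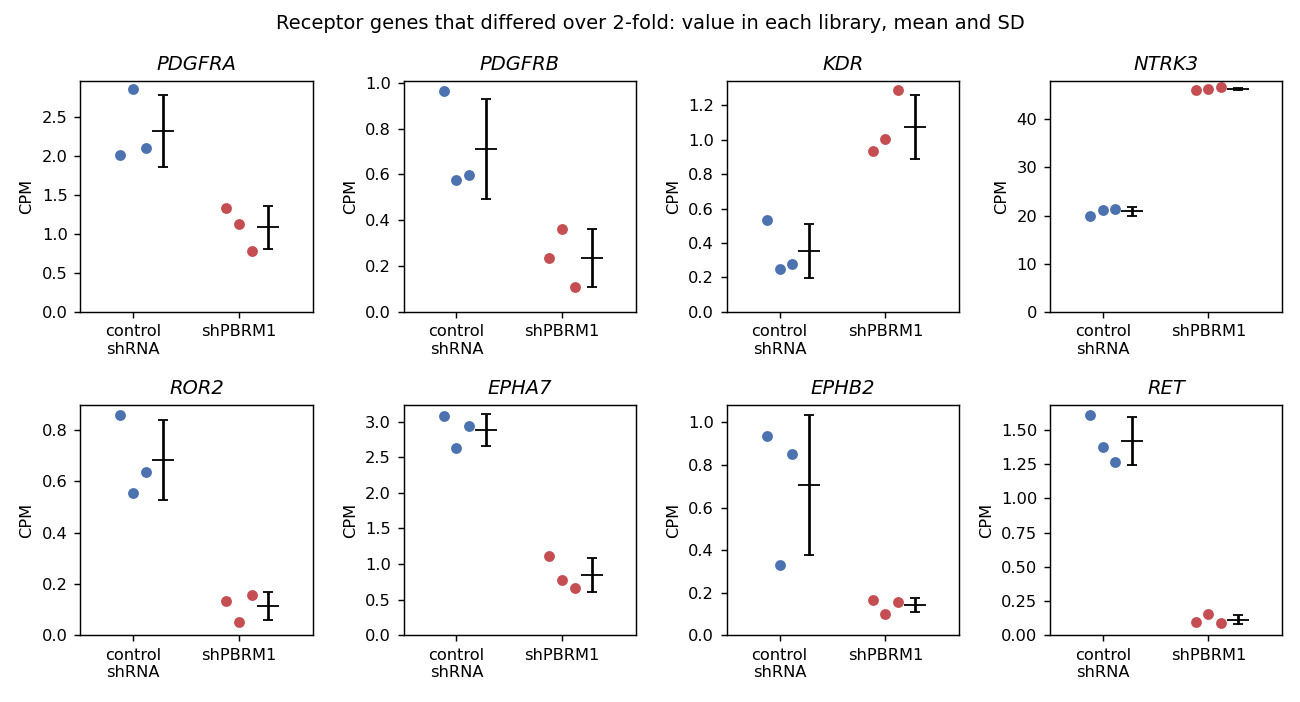
CPM in each library (points), with mean and SD in black, for the 8 RTK genes that differed over 2-fold. KDR and NTRK3 are higher and the other 6 lower in shPBRM1, and in each panel the groups do not overlap, as for 68.3% of all genes.

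The receptors of WNT5A and their relatives were split. ROR1 rose from 16.4 ± 1.74 to 23.5 ± 0.796 CPM (log2 fold change 0.51, adjusted p = 1.29e-06), while ROR2 had 32, 27 and 32 counts in control and 8, 2 and 10 in shPBRM1 libraries (-2.45, SE 0.384; adjusted p = 2.89e-05). The ligand WNT5A rose from 30.5 ± 1.37 to 58.4 ± 0.962 CPM (0.94, adjusted p = 3.1e-14). RYK, a WNT-binding pseudokinase, rose from 80.1 ± 1.79 to 89.6 ± 2.89 CPM (0.16, adjusted p = 0.000379). PTK7, another pseudokinase, was at 230.5, 236 and 240.2 CPM in control and 229, 220.4 and 221 CPM in shPBRM1 libraries and did not pass (-0.07, adjusted p = 0.0817), though it did in the fit with a replicate block (adjusted p = 0.0425). Of the collagen receptors, DDR2 rose from 675 ± 23.4 to 804 ± 25.6 CPM (0.25, adjusted p = 6.69e-06), and DDR1 was at 19.5 ± 0.699 and 18.4 ± 0.693 CPM (-0.08, 95% interval -0.20 to 0.04; adjusted p = 0.264). ROS1, a receptor related to ALK, rose from 1.97 ± 0.141 to 3.23 ± 0.148 CPM (0.70, adjusted p = 0.00022). TEK, the angiopoietin receptor, had 42, 56 and 35 counts in control and 68, 48 and 41 in shPBRM1 libraries (log2 fold change 0.0034, adjusted p = 0.992), while its ligand gene ANGPT2 rose (0.70) and ANGPT1 fell by 0.87 on the log2 scale.

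The EPH receptors, which bind ephrins on neighboring cells, divided into 4 that rose, 3 that fell and EPHA1, which did not pass (log2 fold change -0.06, adjusted p = 0.9). Of all genes, 31.5% rose and 33.2% fell. EPHA2 measured 338, 349 and 335 CPM in control and 462, 455 and 428 CPM in shPBRM1 libraries (0.40, SE 0.038; adjusted p = 1.51e-08), with no overlap. EPHB4 rose from 101 ± 1.40 to 128 ± 4.29 CPM (0.34, adjusted p = 1.24e-08), EPHA5 from 53.8 ± 0.931 to 73.5 ± 2.38 CPM (0.45, adjusted p = 4.85e-10) and EPHA3 from 3.46 ± 0.441 to 4.67 ± 0.667 CPM (0.45, adjusted p = 0.00478). EPHA4 went the other way. It measured 200, 198 and 208 CPM in control and 122, 108 and 115 CPM in shPBRM1 libraries, 57.0% of the control level (-0.81, SE 0.054; adjusted p = 3.52e-14). Its libraries are given although its change was under 2-fold. No other RTK gene with a mean of 500 or more counts passed as lower in this test, though PTK7 did in some of the alternative fits. That choice was made after the values of EPHA4 were seen.

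EPHA7 and EPHB2 fell on few counts. EPHA7 had 115, 128 and 148 counts in control and 67, 30 and 42 in shPBRM1 libraries (log2 fold change -1.75, SE 0.225; adjusted p = 6.3e-08). EPHB2 had 35, 16 and 43 counts against 10, 4 and 10 (-2.24, SE 0.478; adjusted p = 0.000143), and was too scarce to be tested once counts were divided by 2. In neither did the groups overlap in CPM, although the lowest control library of EPHB2 stood apart from the other 2. Another annotated gene, AL512444.1, overlaps EPHB2 on the opposite strand. Within the summed EPH level the share of EPHA2 was 62.5 ± 0.782% in control and 71.2 ± 0.656% in shPBRM1 cells, and that of EPHA4 was 20.4 ± 0.656% and 10.1 ± 0.580%, each without overlap (exact two-sided permutation p = 0.1). Of the 8 ephrin genes, EFNA5 (0.77), EFNB1 (0.46) and EFNA4 (0.45) rose, EFNA1 fell by 0.23 on the log2 scale and the other 4 did not pass.

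Across all 70 ligand genes listed, 46 had a mean of 10 or more counts and were tested. Of these, 12 rose, 23 fell and 11 did not pass, with a median log2 fold change of -0.34, beside 31.5% of all genes rising and 33.2% falling. Over 2-fold, 3 rose (HBEGF, NRG2 and GAS6) and 14 fell (among them EGF, AREG, EREG, BTC, MST1, PDGFA, CSF1, IL34, FGF10, FGF19, FGF21, IGF1 and VEGFA), beside 2.87% and 9.68% of all genes. Of all genes with a mean of 10 to 500 counts, 4.1% rose and 16.8% fell over 2-fold. Among the ligands past 2-fold, EGF, EREG, BTC, IL34 and IGF1 averaged 10 or more counts in the control group only and NRG2 in the shPBRM1 group only. They passed the filter through the group where they were high. Nothing is read from the size of their changes, and the tallies over 2-fold are not read as an excess over all genes.

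**Figure D5:**
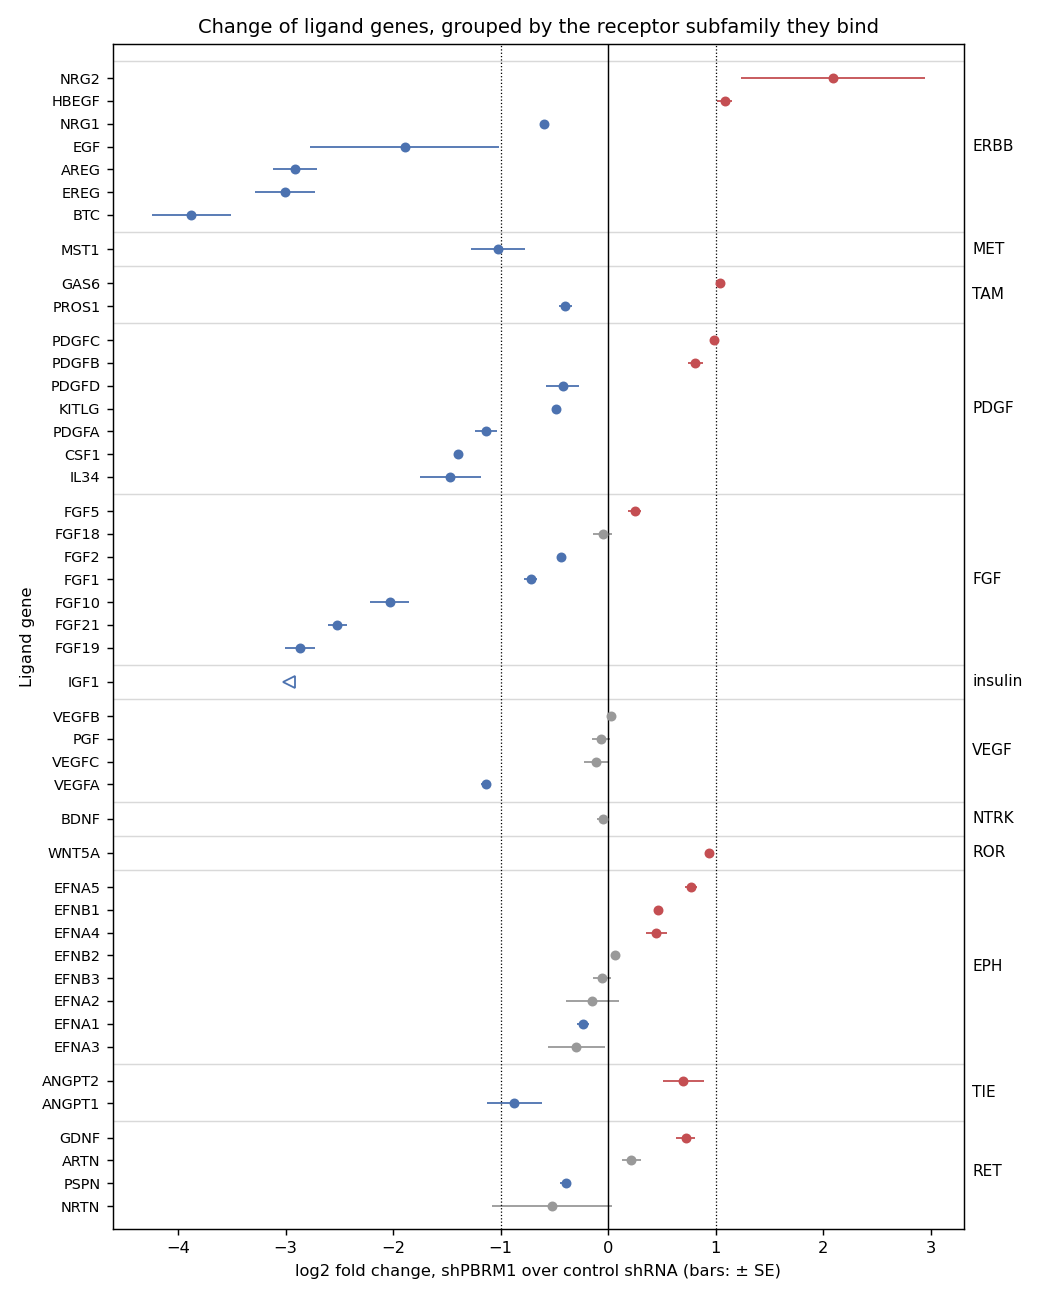
Log2 fold change (shPBRM1 over control shRNA, bars ± SE) of tested ligand genes, those described here, grouped by the receptor subfamily they bind, with gray points for genes that did not pass. The open arrowhead for IGF1 marks a bound, since all shPBRM1 libraries had 0 counts. BTC, EREG, AREG, FGF19 and FGF21 lie beyond -2.5, of which BTC and EREG passed the filter on low counts through the control group only.

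Genes of proteins that work downstream of the receptors or hold them back changed in both directions too. These are RNA levels, and protein was not measured in these libraries. Of 20 adaptor genes tested, 5 rose and 11 fell, beside 31.5% and 33.2% of all genes, and with a replicate block CRK (adjusted p = 0.0354) and NCK2 (adjusted p = 0.0274) also passed as higher. PIK3R1, the regulatory subunit through which receptors recruit PI3K, fell from 156 ± 2.77 to 60.1 ± 1.04 CPM (log2 fold change -1.38, adjusted p = 3.54e-20), and the SHC family adaptor SHC2 fell from 3.22 ± 0.302 to 0.775 ± 0.146 CPM (-2.03, adjusted p = 1.8e-09). SHC3, whose mean was under 10 counts, had 14, 15 and 15 counts against 0, 0 and 4. The central adaptors GRB2 (0.27) and SHC1 (0.19) and the phosphatase PTPN11 (0.68), also named after their values were seen, rose.

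Of 18 genes tested from a list drawn up for restraint of receptor signaling, 6 rose and 8 fell. Of all genes 31.5% rose and 33.2% fell, so that the count of rises is near that of all genes. The list also holds signaling adaptors such as SH2B1 and GRB7, both among the 8 that fell. LRIG1, which promotes degradation of ERBB receptors and MET, rose from 2.39 ± 0.219 to 5.05 ± 0.347 CPM (log2 fold change 1.08, adjusted p = 1.06e-07). ERRFI1 (MIG6), which binds and inhibits the EGFR kinase, fell from 463 ± 8.64 to 220 ± 2.76 CPM (-1.07, adjusted p = 6.8e-17). CBLB, a ubiquitin ligase for activated receptors, fell from 57.2 ± 1.12 to 25.4 ± 0.969 CPM (-1.17, adjusted p = 7.94e-16), and GRB10, which inhibits insulin and IGF1 receptors, from 123 ± 1.55 to 57.3 ± 1.63 CPM (-1.11, adjusted p = 3.89e-18). The scarcer adaptors DOK1 (-2.17, adjusted p = 1.99e-07) and GRB7 (-1.53, adjusted p = 0.00279) fell as well, GRB7 with 10 or more counts on average in the control group only. GRB7 is a signaling adaptor of ERBB2 as much as a relative of GRB10. Of 8 coreceptors and decoys tested, 2 rose and 3 fell, with FGFRL1, a kinase-less FGF receptor, rising by 0.55 and only NRP2 past 2-fold. Of the 12 other RTK genes, 6 were tested, 1 rose and 2 fell, the latter being STYK1 (-1.01, adjusted p = 0.00837) and AATK (-1.01, adjusted p = 0.00267), both at the edge of 2-fold.

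Promoter sequences were available from RefSeq (GRCh38.p14) for 43 of the 46 RTK genes, as 74 windows of 300 bases that run from 250 bases before to 50 bases after a gene start. They were searched on both strands for the core of the interferon-stimulated response element (ISRE), the letters GAAA, any 2 bases and GAAA again, which IRF factors bind, because the study concerns interferon signaling. The ISRE core was in 5 windows (6.76%), those of EPHA4, PDGFRB, AXL, DDR1 and NTRK2, against 3.57% of all 35116 windows. Of these genes EPHA4 and PDGFRB fell and AXL rose, DDR1 did not pass and NTRK2 was close to silent. The bases from 250 to 51 before the start are shown for the first 3, 5′ to 3′ on the strand of the gene, with the ISRE core in capitals. EPHA4 lies at chr2:221574253-221574452 on the minus strand with the motif starting 79 bases before the gene start, PDGFRB at chr5:150155896-150156095 on the minus strand with the motif at 159 bases, and AXL at chr19:41226505-41226704 on the plus strand with the motif at 188 bases before a second start that lies inside the gene.
EPHA4: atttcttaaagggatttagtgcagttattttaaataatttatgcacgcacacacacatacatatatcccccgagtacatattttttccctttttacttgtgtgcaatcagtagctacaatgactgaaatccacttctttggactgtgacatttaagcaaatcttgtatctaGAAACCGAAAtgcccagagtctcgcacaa
PDGFRB: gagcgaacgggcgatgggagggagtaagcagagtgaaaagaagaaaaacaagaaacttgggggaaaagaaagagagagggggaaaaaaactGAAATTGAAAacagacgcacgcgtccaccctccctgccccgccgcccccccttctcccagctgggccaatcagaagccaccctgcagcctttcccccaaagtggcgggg
AXL: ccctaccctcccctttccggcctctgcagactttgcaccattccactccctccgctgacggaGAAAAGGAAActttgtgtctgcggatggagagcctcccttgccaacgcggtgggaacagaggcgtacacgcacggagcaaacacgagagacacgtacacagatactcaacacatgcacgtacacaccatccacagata

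The other motifs searched were the STAT site GAS (TTCNNNGAA), found in 6.76% of RTK windows and 7.66% of all windows, the AP-1 site (TGANTCA), found in 9.46% and 7.71%, and the GC box (GGGCGG), found in 64.9% and 45.0%. The GC box can overlap itself in runs of G, and none of the other motifs holds it. The median GC content was 67.8% in the promoters of RTK genes with a mean of 500 or more counts, 63.2% in those with 10 to 500 counts, 61.7% in the silent ones and 58.7% over all windows. RET, KDR and NTRK3, picked for the lowest and the highest log2 fold changes among the RTK genes tested, are shown with their GC boxes, written on either strand, in capitals. RET lies at chr10:43076819-43077018 on the plus strand with 3 boxes in the bases shown, KDR at chr4:55125646-55125845 on the minus strand with 2, and NTRK3 at chr15:88256790-88256989 on the minus strand with 2. A match is a run of letters and does not show that a factor binds there.
RET: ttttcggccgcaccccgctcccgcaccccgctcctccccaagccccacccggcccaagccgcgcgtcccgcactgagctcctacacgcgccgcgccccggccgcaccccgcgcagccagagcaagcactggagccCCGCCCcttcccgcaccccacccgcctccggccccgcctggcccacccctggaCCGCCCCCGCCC
KDR: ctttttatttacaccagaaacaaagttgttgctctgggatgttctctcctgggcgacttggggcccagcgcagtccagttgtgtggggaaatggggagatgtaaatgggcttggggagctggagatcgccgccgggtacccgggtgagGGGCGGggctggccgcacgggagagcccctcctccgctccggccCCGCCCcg
NTRK3: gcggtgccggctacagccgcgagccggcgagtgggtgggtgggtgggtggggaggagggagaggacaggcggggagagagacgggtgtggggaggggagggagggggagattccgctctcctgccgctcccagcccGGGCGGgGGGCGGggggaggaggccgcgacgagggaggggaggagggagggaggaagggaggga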

How the data were processed

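RNA-seq counts of BT-549 cells, 3 control_shRNA and 3 shPBRM1 libraries, were analyzed. The deposited values are raw counts for each gene symbol, which the authors had not normalized. The submitters' processing notes name CASAVA 1.8.2, STAR 2.7.9a, featureCounts, DESeq2 1.24.0 and the build GRCh38.p7, and the libraries were made with a stranded poly(A) kit; the annotation release and strand setting are not given in the sources used here. Of the 37887 rows, 14 carry dates in place of symbols and were not named.

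Counts were normalized by TMM, filtered with filterByExpr (15450 genes kept) and tested with the quasi-likelihood test of edgeR 4.0.16 (limma 3.58.1, R 4.3.3), adjusted by Benjamini-Hochberg over all tested genes. DESeq2 1.42.0 was an alternative. Standard errors were computed from replicate log2 CPM values, 2 counts added. Subfamily sums were compared by exact permutation. The tests were checked on simulated data. Levels per kilobase and positions use GENCODE v29 (GRCh38).

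Libraries with the same replicate number in the titles deviated together (correlations 0.734, 0.593 and 0.419 across 5622 genes), so a replicate block was also fitted. Control replicate 2 and shPBRM1 replicate 3, with unlike numbers, did so too (0.464). The other pairs with unlike numbers lay between -0.671 and 0.051. Libraries within a group differed by more than sampling noise (chi-square per degree of freedom 4.92 to 24.9).

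The members and gene lists were chosen with earlier results of these data known. Every RTK gene with a mean of 10 or more counts is named, with each library given for those past adjusted p under 0.05 and 2-fold and for the most abundant of each of the 6 subfamilies and MET; ligands and other pathway genes are named when past both thresholds, and further ones named were chosen after their values were seen. Some of the genes counted are not named or plotted.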

Additional observations from a re-analysis of the deposited data

How the results depend on the processing

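The alternatives were DESeq2, a replicate block, RLE factors, scaling by library size only, counts divided by 2 (added after the data were seen), each library left out, subfamily sums of CPM not divided by length, no low-count filter and a stricter filter at a mean of 50 counts. Across them, 449 of 469 member values kept direction and side of the threshold. The replicate block changed the call of PTK7 among the RTK genes (-0.07, adjusted p = 0.0425), of no ligand, and of the adaptors CRK (0.16, adjusted p = 0.0354) and NCK2 (0.19, adjusted p = 0.0274), which made 16 other pathway genes rising instead of 14, and each subfamily had an exact sign-flip p of 0.25 over the 3 pairs, the smallest possible. PTK7 also passed with library size only (adjusted p = 0.00716), with the filter at 50 counts (0.0480) and without shPBRM1 replicate 1 (0.0363). MST1R lost its call as given above.

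The filter at 50 counts tested fewer genes and left 5 members falling, 1 rising and 2 falling over 2-fold, 9 ligands falling over 2-fold and 7 other pathway genes falling over 2-fold. Testing against a 2-fold change with edgeR's glmTreat left 1 member rising, 0 ligands and 0 other pathway genes rising, and 7 other pathway genes falling. The cause was not tested.

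Without each library in turn, 19 members rose and 7 to 10 fell, and over 2-fold 2 rose and 5 to 7 fell. The ranges for ligands were 12 to 14 rising, 22 to 24 falling, 3 to 4 and 13 to 14 over 2-fold, and for other pathway genes 13 to 16, 21 to 24, 1 and 9 to 10. Summed subfamily log2 ratios lay between 0.25 and 0.29 for ERBB, -1.09 and -0.70 for PDGF, 0.54 and 0.57 for FGF, 0.30 and 0.35 for insulin, 0.45 and 0.47 for TAM, and 0.19 and 0.23 for EPH.

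All sign changes were in genes that passed in no setting. TEK was at -0.031 with counts divided by 2 and at -0.044 with library size only, and between -0.21 and 0.26 without 1 library. FGFR4 was at -0.015 with library size only and between -0.038 and 0.12 without 1 library, CSF1R between -0.43 and 0.042, and EPHA1 between -0.29 and 0.15.

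The 8 members past 2-fold were the same 8 under DESeq2, RLE factors, library size only, no filter and the replicate block, with NTRK2 added by DESeq2 and by no filter. With counts divided by 2, EPHB2 no longer passed the filter and so lost its call, which left 5 members falling over 2-fold, and 11 ligands instead of 14 fell over 2-fold. Depth limits the scarce receptors most, since PDGFRB, ROR2, EPHB2, RET and KDR rest on fewer than 100 counts per library, many of them even numbers.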
